A study of Homo sapiens with 6 samples.

Results

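Mesendoderm regulators are the transcription factors that direct pluripotent cells into mesoderm and endoderm at gastrulation. The 10 genes described here, T, EOMES, MIXL1, GSC, MESP1, TBX6, SOX17, GATA4, GATA6 and CDX1, were chosen by name, with earlier results of these data known, out of 23284 genes measured. In the embryo, cells leave the epiblast through the primitive streak, where WNT/beta-catenin signalling and Nodal signalling together switch on T, EOMES and MIXL1. Prolonged Nodal signalling favours endoderm, marked by SOX17, and WNT with FGF favours mesoderm, marked by MESP1 and TBX6. The same WNT signal, given to human pluripotent cells in culture, is also used to make neural crest, the migratory population that forms peripheral neurons, glia and pigment cells.

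Poly-adenylated RNA was sequenced in 6 libraries, 2 for each of 3 stages, which the labels call ES (undifferentiated, day 0), preNC (pre-neural crest, day 3) and NC (neural crest, day 5). All groups came from the established human embryonic stem cell line WA01, with a wildtype genotype, so the results stand for 1 line. The labels give every library the same protocol. In it, dissociated cells were seeded at 20000 per cm2 on Matrigel with 3 µM CHIR99021, a GSK3 inhibitor that activates WNT/beta-catenin signalling. The protocol adds 10 µM of the ROCK inhibitor Y-27632 for 2 days, and it lists B27 at 2% and BSA at 0.5%. That text covers the day 0 libraries too, so it does not show which cells were treated. The authors' deposited table holds 1 FPKM value per gene and stage; FPKM are fragments scaled for the length of the transcript and the size of the library. It holds no spread between libraries, and their depth is not known. Nothing in the labels says that the libraries of a stage came from separate cultures, so the deposited q may measure technical spread alone. In bulk RNA, fewer cells that express a gene and less RNA per cell cannot be told apart.

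The medians of the listed markers followed the labels of day 0 and day 5, though not every gene did. No list of preNC markers was drawn up. The 10 pluripotency genes listed lay between an FPKM of 17.8 and 1087 on day 0, and their median was 186 on day 0, 30.1 on day 3 and 6.69 on day 5. SOX2 (203, 341 and 129) and LIN28A (396, 555 and 419) had their highest values on day 3. The 12 neural crest markers had medians of 0.329, 1.66 and 13.6 on the same days, and all 12 stood at 1 or more on day 5. Of the 12, 4 stood at 1 or more on day 0 as well. FOXD3 (17.9, 0.876 and 15.4) and ETS1 (7.27, 1.11 and 6.14) had their highest values on day 0 and were called lower on day 3.

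The members were weakly expressed on every day. Their median FPKM was 0.140 on day 0, 0.359 on day 3 and 0.148 on day 5, where the median over all genes was 2.31, 2.24 and 2.31. An FPKM of 1 was reached by 2 members on day 0 and by 1 member on day 3 and on day 5, that is by 20% and 10% of them, against 57.7%, 56.9% and 57.1% of all genes. The highest value of any member in any group was 3.81, that of TBX6 on day 0. Summed over the 10 genes, FPKM was 5.93 on day 0, 5.23 on day 3 and 3.72 on day 5. Among the 10 members, 5 had their highest value on day 0, 2 on day 3 and 3 on day 5. The day of the highest value was not counted over all genes, so these counts have no background. Of the members, 5 stayed below an FPKM of 0.2 in all groups.

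**Figure D1:**
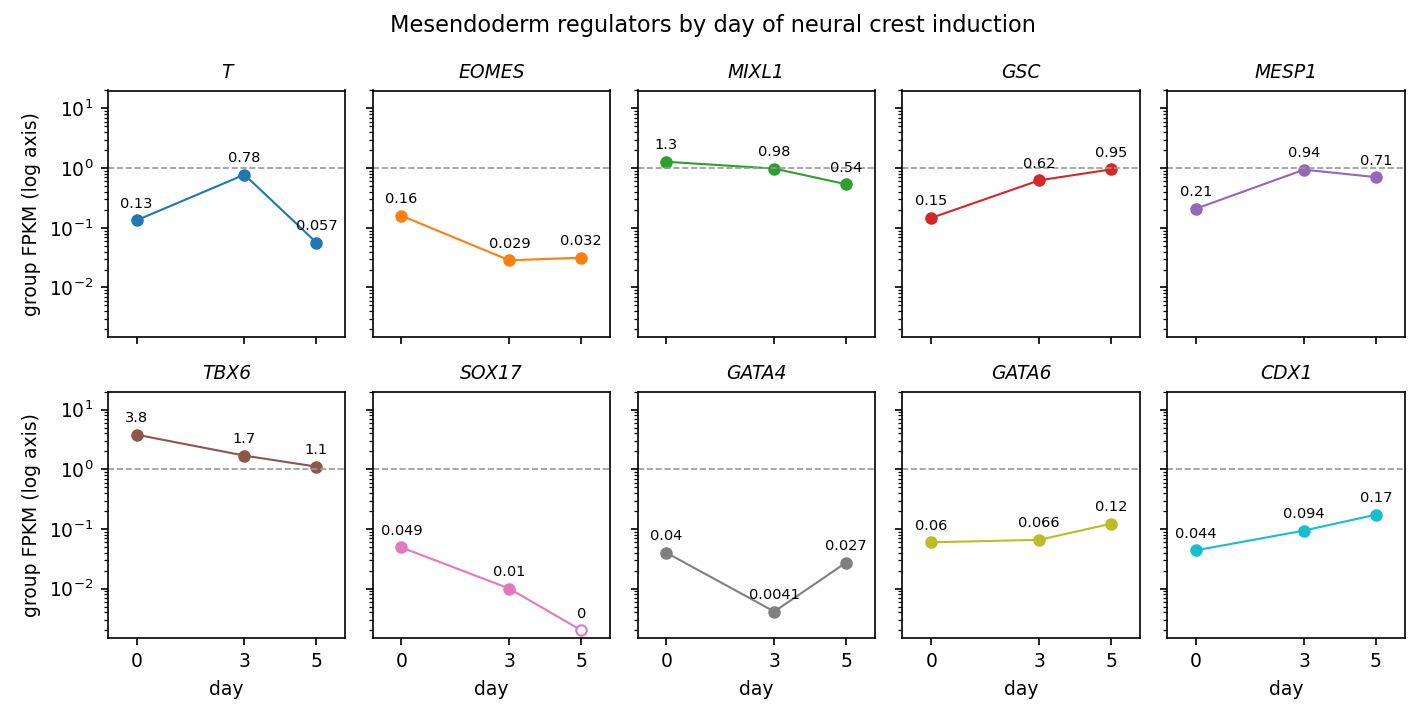
Group FPKM of the 10 members on day 0, day 3 and day 5, on a logarithmic axis, with 1 point per group of 2 libraries and the dashed line at an FPKM of 1. Only TBX6 lies above the line on every day, T has its peak of 0.777 on day 3, and the open circle marks SOX17 on day 5, which is listed at 0 and drawn at the foot of the axis.

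The promoters of the members that carry the results are shown first, because T is known as a direct target of WNT/beta-catenin, whose nuclear partners are the TCF/LEF factors. RefSeq promoter windows (build GRCh38.p14) were matched for 6 of the 10 members, and the 250 bases before the annotated start are considered. Capitals mark a match to CTTTGA, the core letters of a TCF/LEF site, on either strand (TCAAAG on the printed strand is the motif on the other one). T (chr6:166167852-166168101, minus strand) and MIXL1 (chr1:226223414-226223663, plus strand) are shown for their match, and TBX6 (chr16:30091925-30092174, minus strand) as the other member with a call.
T: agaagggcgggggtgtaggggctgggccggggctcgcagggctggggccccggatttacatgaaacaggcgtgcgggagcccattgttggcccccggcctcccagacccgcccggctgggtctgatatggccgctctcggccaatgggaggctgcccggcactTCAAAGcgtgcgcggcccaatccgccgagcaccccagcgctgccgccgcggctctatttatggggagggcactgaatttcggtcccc
MIXL1: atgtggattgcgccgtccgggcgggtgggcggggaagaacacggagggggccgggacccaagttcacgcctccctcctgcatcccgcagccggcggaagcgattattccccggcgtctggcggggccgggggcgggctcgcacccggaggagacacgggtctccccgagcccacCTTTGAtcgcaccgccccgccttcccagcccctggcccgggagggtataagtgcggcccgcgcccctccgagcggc
TBX6: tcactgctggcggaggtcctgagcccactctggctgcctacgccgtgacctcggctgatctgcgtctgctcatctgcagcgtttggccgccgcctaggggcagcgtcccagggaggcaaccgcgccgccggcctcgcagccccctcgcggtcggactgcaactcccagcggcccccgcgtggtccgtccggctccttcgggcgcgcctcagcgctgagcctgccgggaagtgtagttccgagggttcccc

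In T the match lies at bases -87 to -82 before the start and reads on the strand opposite to the gene. In MIXL1 it lies at -76 to -71 and reads along the gene. RefSeq gives T (there named TBXT) another start, which lies upstream of the window shown and whose own window holds no match. Which start the measured RNA came from was not tested. The windows of EOMES, GSC, TBX6 and GATA6 hold no match either. The motif occurs in 11.2% of all 35116 promoter windows of this length, and in 2 of the 7 windows of the members. A match describes the letters and is not evidence of binding. Motif matching was extended to AATNCACA, the letters bound by the Nodal effector FOXH1, which overlaps none of the TCF/LEF matches. It occurs in 2.89% of all windows, and among the members only in that of MIXL1. The windows of T and MIXL1 shown have a GC content of 69.6% and 74%, above the median of 58% over all windows, and so does that of TBX6 at 72%.

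T encodes brachyury, the T-box factor of the primitive streak and notochord. It (chromosome 6, 166571086 to 166582131 in hg19) had an FPKM of 0.134 in ES cells, 0.777 in preNC cells and 0.0566 in NC cells. Day 3 was thus its highest and day 5 its lowest point. The level rose 5.82-fold between day 0 and day 3, a log2 ratio of 2.54 ± 0.71, and the authors' deposited table gave q = 0.00713. The error after ± is here and below that log2 ratio divided by the deposited test statistic. Between day 3 and day 5 T fell by 3.78 ± 0.90 on the log2 scale, a 13.7-fold drop, and the authors' deposited table gave q = 0.00613. Day 5 against day 0 was not tested for T in that table. With a pseudocount, which shrinks the ratios of low genes, the 2 log2 ratios of T were 1.91 and -2.49 for FPKM plus 0.1, and 0.65 and -0.75 for FPKM plus 1. Even at its peak T stood above only 41.1% of all genes, against 28.9% on day 0 and 24.6% on day 5.

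Counted over the members, T was the only call between day 0 and day 3, where 1 of the 5 tested members was called higher and 0 were called lower. A gene counts as called where the authors' deposited table gives a q under 0.05, and the counts for other genes further on use the same threshold. Over all genes tested 8.96% were called higher, 11.6% lower and 20.6% in either direction, so 1 call in 5 is near the background. T stays below an FPKM of 1 on every day, and where only genes reaching 1 in either group were kept, 0 members were called higher by day 3 and 0 lower between day 3 and day 5. Between day 3 and day 5, 0 of 5 tested members were called higher and 1 lower, against 5.93% and 6.68% of all genes and 12.6% in either direction. Between day 0 and day 5, 0 of 4 were called higher and 1 lower, against 12.2% and 14.7%, and 27% in either direction. The 3 comparisons share their groups and are not independent. The other members had no test in that table, 5, 5 and 6 of them in the 3 comparisons in the order given. Of all genes, 69.7%, 68.4% and 70.5% were tested. Among tested genes below an FPKM of 1 in both groups, where T lies, 7.1% were called higher between day 0 and day 3 and 6.14% lower between day 3 and day 5.

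**Figure D2:**
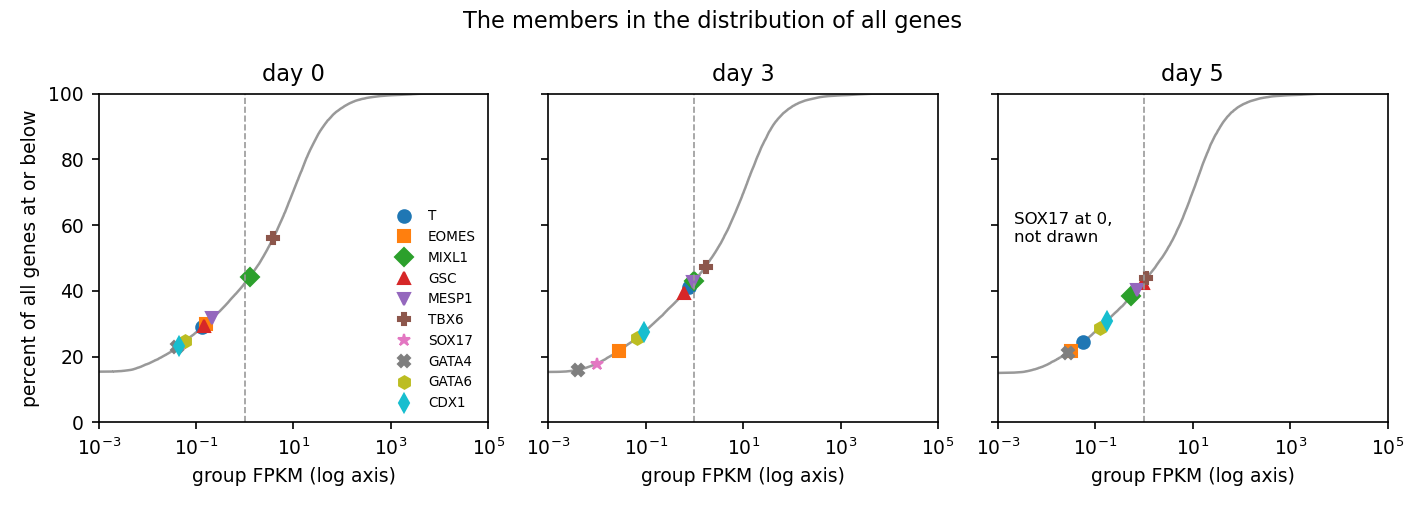
Percent of all 23284 genes at or below each group FPKM (grey curve, logarithmic axis) for each day, with the members marked at their own FPKM and the percent of genes below them. All members but TBX6 on day 0 lie below the 50% level, and TBX6 on day 0 stands above 56% of genes.

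The 2 other T-box members had their highest values on day 0. TBX6, the factor of paraxial mesoderm, had the highest level among the members on every day. It (chromosome 16, 30097115 to 30103205) went from 3.81 on day 0 to 1.70 on day 3 and 1.11 on day 5. The first step missed the threshold, with a log2 ratio of -1.17 ± 0.43 (q = 0.0510, the authors' deposited table). Nor was the second step called (log2 -0.61 ± 0.51, q = 0.425, the authors' deposited table). Over the whole course TBX6 fell by 1.78 ± 0.48 on the log2 scale, to a level 3.43-fold lower, and the authors' deposited table gave q = 0.00324.

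EOMES (chromosome 3, 27757886 to 27763785), which cooperates with Nodal signalling to start definitive endoderm, was at 0.160 on day 0, 0.0285 on day 3 and 0.0316 on day 5. No comparison of EOMES was tested. Its day 0 value was its highest, and after induction it stood above 21.8% of genes on day 3 and on day 5. Among the 14 other T-box family genes listed, only MGA, a large repressor that also carries a bHLH domain, reached an FPKM of 1, at 4.97, 7.52 and 6.70 on days 0, 3 and 5 without a call. Of these genes 0 of 4 tested were called between day 0 and day 3 and 0 of 6 between day 3 and day 5, against 20.6% and 12.6% of all genes tested. Between day 0 and day 5, 1 of 5 was called, against 27%. It was TBX3, which was higher on day 5 (0.306) than on day 0 (0.0713).

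Of the 2 homeobox genes of the streak and organizer, MIXL1 declined in value and GSC increased, neither with a call. MIXL1 (chromosome 1, 226411383 to 226413513), a paired-type factor of nascent mesendoderm, was at 1.28 on day 0, 0.983 on day 3 and 0.537 on day 5. Its log2 ratio between day 0 and day 5 was -1.25 ± 0.50, and the authors' deposited table gave q = 0.267. GSC (chromosome 14, 95234560 to 95236499), goosecoid, a transcriptional repressor expressed in the organizer, stood at 0.147, 0.625 and 0.953 on the 3 days. Both later groups exceeded day 0, by a log2 ratio of 2.09 ± 0.54 on day 3 and of 2.70 ± 0.59 on day 5, for which the authors' deposited table gave q = 0.145 and q = 0.0744.

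MESP1, the bHLH factor of cardiac and cranial mesoderm precursors, followed T upward by day 3 in value but had a lower value on day 5. It (chromosome 15, 90293098 to 90294540) was at 0.210 on day 0, 0.943 on day 3 and 0.707 on day 5. The ratio of day 3 to day 0 was 4.50-fold (log2 2.17 ± 0.47), which was not called (q = 0.0710, the authors' deposited table). Day 5 against day 0 gave a log2 ratio of 1.75 ± 0.51 and the authors' deposited table gave q = 0.128. Its paralog MESP2 was at 0.474, 0.145 and 0.0904, also without a call.

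The size of the test statistic and the deposited q did not rank these genes alike. Between day 0 and day 3 the statistic was 4.63 for MESP1 and 3.84 for GSC, both uncalled, and 3.57 for T, which was called in the authors' deposited table. Over all tested genes in that comparison, 1979 had a statistic of at least 3 in size, and 213 of them (10.8%) were not called. If p is instead taken from a normal distribution of the statistic, GSC, MESP1 and T were higher and TBX6 lower on day 3, and GSC and MESP1 were higher and TBX6 lower on day 5 than on day 0. Under that rule 5.68% of all tested genes were called higher and 8.97% lower on day 3, and 7.61% and 11.5% on day 5 against day 0. The cause of the disagreement was not tested.

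**Figure D3:**
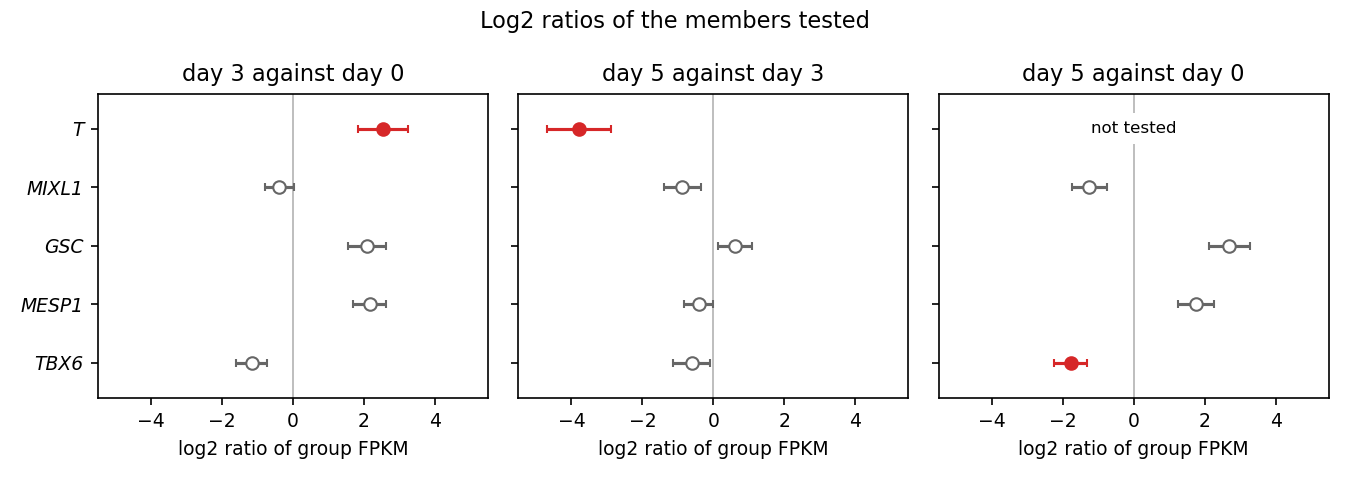
Log2 ratio of group FPKM for the 5 members tested in at least 1 comparison, with bars for the error computed from the deposited test statistic. Filled red points are called (q under 0.05, the authors' deposited table) (T in both steps, TBX6 between day 0 and day 5), and open points are not called.

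The endodermal and posterior members were close to the bottom of the range, and none of their comparisons was tested. SOX17 (chromosome 8, 55370495 to 55373456), the SOX factor that defines definitive endoderm, was at 0.0491 on day 0 and 0.01004 on day 3, and it was listed at 0 on day 5. GATA4 (chromosome 8, 11561717 to 11617509), a zinc finger factor of endoderm and heart, was at 0.0401, 0.00413 and 0.0274. GATA6 (chromosome 18, 19749416 to 19782227), its relative in the same tissues, was at 0.0599, 0.0658 and 0.122. CDX1 (chromosome 5, 149546344 to 149564121), a caudal homeobox gene that WNT induces in the posterior embryo, was at 0.0440, 0.0942 and 0.174. SOX17 and GATA4 thus had their highest values on day 0 and GATA6 and CDX1 on day 5, but all of these lie below an FPKM of 0.2, as do those of EOMES, so 5 of the 10 members never reached that level. The differences of these genes were not tested in any comparison, and at an unknown depth such values can rest on few fragments.

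Ordered by level, day 0 ran TBX6, MIXL1, MESP1, EOMES, GSC, T, GATA6, SOX17, CDX1 and GATA4. On day 3 the order was TBX6, MIXL1, MESP1, T, GSC, CDX1, GATA6, EOMES, SOX17 and GATA4, and on day 5 it was TBX6, GSC, MESP1, MIXL1, CDX1, GATA6, T, EOMES, GATA4 and SOX17. Without values per library it could not be said whether neighbours in these orders differ. T moved from the sixth place to the fourth and then to the seventh.

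In the members' families the posterior gene CDX4 fell between day 0 and day 3 from 2.66 to 0.240 (log2 -3.47, q = 0.00647, the authors' deposited table). On day 5 CDX4 was at 0.0204, and this larger drop from day 0 was not called (log2 -7.03, q = 0.492, the authors' deposited table). CDX2 stayed at or below 0.0338 without a test. Of the 6 other GATA and FOG genes listed, 2 were tested between day 0 and day 3. There 1 was called higher and 0 lower, against 8.96% and 11.6% of all genes tested. Between day 3 and day 5, 2 of 5 were called higher and 1 lower, against 5.93% and 6.68%. Between day 0 and day 5 it was 3 higher and 0 lower of 5, against 12.2% and 14.7%. GATA2 and GATA3, which also mark non-neural ectoderm, were called higher on day 5 than on day 3, and 0 GATA genes reached 1 before day 5. GATA2 went from 0.0787 on day 0 to 0.227 and 1.55, and GATA3 from 0.00952 to 0.108 and 1.84. The genes called higher on day 5 than on day 0 were GATA2, GATA5 and ZFPM2. GATA3 was not called in that comparison (q = 0.460, the authors' deposited table). ZFPM2, a cofactor of GATA factors, rose from 0.0327 to 0.843 by day 3 and fell to 0.306 by day 5, each with a call, whereas ZFPM1 (5.25, 4.02 and 3.28) had none. The SOX17 relatives SOX7 and SOX18 were at 0.491, 0.920 and 0.382 and at 0.187, 1.43 and 0.337. SOX18 was called higher on day 3 than on day 0, and both were called lower on day 5 than on day 3.

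The rest of the streak and early mesoderm list was mixed. Of 20 such genes, 15 were tested between day 0 and day 3, with 5 called higher and 4 lower, against 8.96% and 11.6% of all genes tested. WNT8A, a WNT ligand of the streak, rose from 0.0770 to 5.96 by day 3 and fell to 0.533 by day 5. FGF8, a streak and neural plate border ligand, did the same with 1.04, 4.87 and 0.732. APLNR, a mesoderm receptor, was at 0.0877, 0.392 and 1.03 and was called higher in both steps. NODAL fell from 1.97 to 0.335 by day 3. KDR, the VEGF receptor of mesodermal precursors, fell from 22.2 to 3.14, and NKX1-2, a homeobox gene of the posterior epiblast, from 20.6 to 0.214. Between day 3 and day 5, 3 of 11 tested genes were called higher and 3 lower, against 5.93% and 6.68%, BMP4 rising from 1.69 to 27.5. Between day 0 and day 5 it was 5 higher and 6 lower of 15, against 12.2% and 14.7%. MSGN1, a paraxial mesoderm factor, was listed at 0 on day 3 and on day 5, and HAND1 did not exceed 0.330. The median log2 ratio of FPKM plus 1 over the tested genes of the list was -0.36 between day 0 and day 3, -0.18 between day 3 and day 5 and -0.44 over the course, where all tested genes had 0.03, -0.04 and -0.01. With the untested genes, whose low levels hold this ratio near 0, it was -0.05, -0.01 and -0.15. Among the members the same median was 0.50, -0.35 and -0.04 over the 5, 5 and 4 that were tested, and -0.02, -0.01 and -0.04 over all 10.

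Of 15 other endoderm genes, 3 were called higher and 4 lower of 8 tested between day 0 and day 3, against 8.96% and 11.6% of all genes tested. CXCR4, a chemokine receptor that endoderm and neural crest share, went from 1.94 to 12.5, while HHEX, a homeobox gene of foregut endoderm, fell from 1.95 to 0.420 and AFP from 2.15 to 0.0576. On day 5 AFP was at 0.0198, which was not called against day 0 (q = 0.146, the authors' deposited table). FOXA3 fell in both steps, at 14.9, 7.65 and 3.72. Between day 3 and day 5, 1 was called higher and 3 lower of 8, against 5.93% and 6.68%. Between day 0 and day 5 it was 4 higher and 2 lower of 10, against 12.2% and 14.7%. FOXA2, which marks the node and, together with SOX17, the endoderm, was at 0.0934, listed at 0, and 0.0465. The list's summed FPKM was 23.3, 24.1 and 24.2 on the 3 days. Of 17 paraxial and cardiac mesoderm genes, 1 was called higher and 3 lower of 8 tested between day 0 and day 3, 4 and 0 of 10 between day 3 and day 5, and 2 and 3 of 10 over the course. The shares of all genes tested are those given for the endoderm list. TCF15 went from 5.91 to 2.099 and 1.03, MYL7 from 3.14 to 0.861 and 0.229, and TNNT2 from 12.7 to 2.77 and back to 6.62, while LFNG, which also acts in neural tissue, rose from 17.1 to 38.6 by day 3. Between day 0 and day 3 the median log2 ratio of FPKM plus 1 was -0.13 over the 8 tested endoderm genes and -0.04 over all 15. For the mesoderm list it was -0.69 over the 8 tested genes and 0.01 over all 17, so the sign differs with the genes included.

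**Figure D4:**
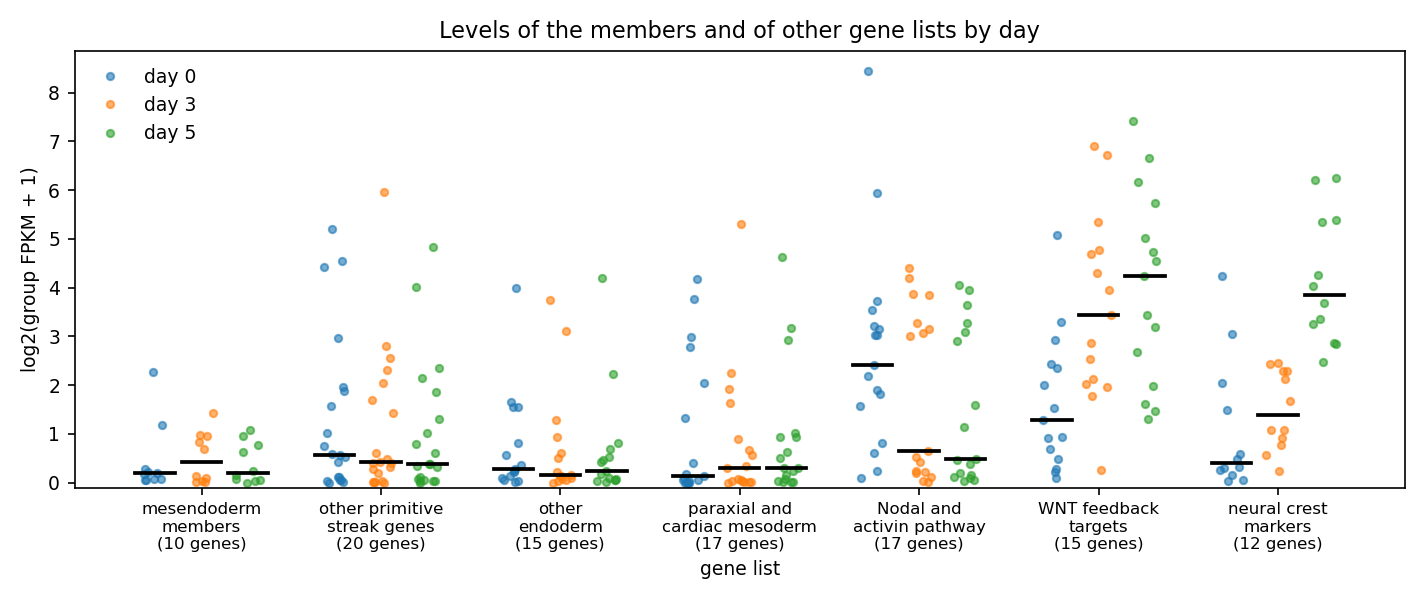
Log2 of group FPKM plus 1 for the genes of 7 lists on day 0, day 3 and day 5, with 1 point per gene and a bar at the median. The mesendoderm members stay at the low end on every day, and so do the medians of the other streak, endoderm, and paraxial and cardiac mesoderm lists. On day 3 these 3 lists had a median FPKM of 0.333, 0.119 and 0.224, against 0.359 for the members. WNT feedback targets and neural crest markers have their highest medians on day 5 and Nodal pathway genes on day 0.

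By day 3 most WNT feedback targets were called higher, and the Nodal pathway genes that were called were lower with 1 exception. WNT feedback targets were called higher in 12 of 14 tested genes by day 3 and lower in 0, and over the whole course in 12 and 0 of 15. Of all genes tested, 8.96% were called higher and 11.6% lower by day 3, and 12.2% and 14.7% over the course. Between day 3 and day 5, 6 of the targets were called higher and 2 lower of 15, against shares of 5.93% and 6.68%. Their median FPKM was 1.42, 9.85 and 17.7 on the 3 days, and the median change by day 3 was 1.61 over the 14 tested genes and 1.56 over all 15, as a log2 ratio of FPKM plus 1. LEF1, a nuclear partner of beta-catenin, was at 0.914, 14.4 and 25.4, and SP5, a WNT-induced zinc finger factor, at 1.42, 118 and 52.0. SP5 and some other targets thus had their highest value on the same day as T, SP5 at 118 against 0.777 for T. LEF1, DKK1 and APCDD1 had theirs on day 5. DKK1 and APCDD1, WNT inhibitors that the pathway induces, were at 31.3 and 171 on day 5.

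Of the Nodal and activin pathway genes 6 were called lower and 1 higher of 15 tested by day 3, 1 lower and 0 higher of 12 between day 3 and day 5, and 4 lower and 2 higher of 16 over the course. The shares of all genes tested are those given for the WNT feedback targets. NODAL, CER1 and TDGF1, all called lower by day 3, also stand in the streak, endoderm and pluripotency lists, so these counts overlap. The co-receptor TDGF1 was at 345, 0.573 and 0.389, the feedback inhibitor LEFTY1 at 4.34, 0.147 and 0.119, and FOXH1, the nuclear partner of Nodal's SMADs, at 60.2, 17.4 and 1.21. GDF3, a ligand of the pathway, went from 7.21 to 0.0274 without a call. The receptor ACVR2B (12.2, 20.03 and 15.7) and the signal transducers SMAD2 (7.14, 7.88 and 8.71) and SMAD4 (10.7, 13.5 and 14.6) were not called in any comparison, and SMAD3 was the gene called higher by day 3. The median log2 ratio of FPKM plus 1 between day 0 and day 3 was -0.59 over the 15 tested genes and -0.12 over all 17. The relation of either pathway to the members was not tested.

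Markers of other lineages were read on the same scale. Of 6 endothelial and blood markers 5 lay at or below 0.175 on every day, and the exception, TEK, stood at 12.2, 21.5 and 15.3, with 1 call, higher by day 3. Of 7 trophoblast and amnion markers, 1 was called higher and 2 lower of 4 tested between day 0 and day 3, and 1 higher and 2 lower of 3 between day 3 and day 5. Over all genes tested the shares were 8.96% and 11.6% in the first step and 5.93% and 6.68% in the second. Between day 0 and day 5 it was 1 higher and 2 lower of 4, against 12.2% and 14.7%. VTCN1 was the gene called higher by day 3, and with 0.182, 0.696 and 0.231 it was called lower again by day 5, so that its highest value falls on the same day as that of T. KRT7 fell in both steps, from 8.45 to 1.79 and 0.336, and GABRP fell from 0.966 to 0.0220 by day 3. TFAP2C, which the neural plate border also uses, was at 2.57, 3.53 and 7.68 and was called higher in the second step. Of the 9 neural progenitor markers, all tested, 6 were called higher and 1 lower by day 3. Between day 3 and day 5 it was 2 higher and 3 lower, and over the whole course 5 higher and 1 lower, beside the same shares. SOX21 (8.38, 91.0 and 5.57) and DBX1 (0.282, 81.9 and 1.26) had their highest values on day 3, as T did. PAX6 (0.393, 1.86 and 15.3) and LIX1 (1.12, 35.1 and 37.1) had theirs on day 5. The part of these other lineages in the values of the members was not tested.

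Genes whose course is most like that of a member were sought for TBX6 and MIXL1, which alone reached an FPKM of 1 in any group. Likeness was the distance between log2 values of FPKM plus 1 on the 3 days after subtracting each gene's mean, over 14550 genes and 3 groups. The 3 nearest to TBX6 were MYB (distance 0.0133, at 3.04, 1.25 and 0.786), PTGES2 and DAPK1. The 3 nearest to MIXL1 were CDC16 (distance 0.00284), LOC100506930 and AP1G2. With 3 points per gene, close distances are found easily among so many genes, and with a pseudocount of 0.1 none of these genes remained among the nearest 3 (0 shared for each member).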

How the data were processed

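RNA of 6 libraries was summarised by the authors in 1 table of gene-level tests, in the format that Cuffdiff writes. Named in the submitters' processing notes are Cuffdiff 2.1.1, TopHat2 2.0.10, TopHat and the build hg19. Annotation, read length and strand setting: not given in the sources used here. Per the file headers, the deposited values are FPKM per gene and group, a test statistic (used as a score), a p-value and a q-value for each of 3 comparisons. The deposited q equals the Benjamini-Hochberg adjustment over the tested rows of all comparisons. No values per library were used (0 columns of single samples), so no test of replicates was run.

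Genes were matched by the identifier column. Tested genes have the status OK, and called genes a deposited q below 0.05. Ratios were computed from FPKM, and the implied standard error is the log2 ratio divided by the statistic. List medians use FPKM plus a pseudocount of 1. Locus starts were taken as counted from 0 (end minus start matched the RefSeq length for 1901 genes, plus 1 for 253) and are printed counted from 1. The 12 other gene lists were set by name. NODAL, CER1, TDGF1, GATA5, TBX5, TBX20 and ISL1 each stand in more than 1 of them, so the counts of different lists are not separate. From each, apart from the pluripotency and neural crest lists, up to 4 genes with the largest change at an FPKM of at least 1 were named, with those needed to make a count clear. The genes CDX2, CDX4, FOXA2, MSGN1, HAND1, MESP2, SOX7, SOX18, APLNR, FGF8, NODAL, ACVR2B, SMAD2, SMAD3, SMAD4, TBX3, GATA5, ZFPM2, VTCN1, GABRP, FOXD3, ETS1, SOX2 and LIN28A were chosen for naming after their values were seen. The members and lists were chosen with earlier results of these data known. Adjustment and scaling were tested on simulated data. Alternatives were a stricter q, other p-values and adjustments, filters, pseudocounts and scalings. Python 3.11.15 with pandas 2.3.3 was used.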

Additional observations from a re-analysis of the deposited data

How the results depend on the processing

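No paired analysis was possible because the table holds 1 value per gene and group, and for the same reason no library could be left out. Under a normal p of the test statistic, 3 members were called higher and 1 lower between day 0 and day 3, and 2 higher between day 0 and day 5; all genes called higher numbered 915, 530 and 1238 in the 3 comparisons (day 3 against day 0, day 5 against day 3, day 5 against day 0). With the deposited p adjusted within the comparison, TBX6 was 1 member called lower between day 0 and day 3 (adjusted value 0.0499). When only genes reaching an FPKM of 1 in either group were kept, with or without adjusting again, T left the test, so that 0 members were called higher between day 0 and day 3 and 0 lower between day 3 and day 5. With a q below 0.01 the members' calls kept their numbers, and all genes numbered 946 higher between day 0 and day 3, and 586 higher and 619 lower between day 3 and day 5. With a level floor of 0.5 in place of 1, 5 members passed on day 3 and 4 on day 5; with a floor of 2, 1 passed on day 0 and 0 on day 3 and on day 5. A pseudocount cannot change the sign of a ratio but shrinks its size: with FPKM plus 1 the day 3 to day 0 log2 ratio of EOMES went from -2.49 to -0.17, that of GATA4 from -3.28 to -0.05, and that of T from 2.54 to 0.65. The 2 ratios of SOX17 against a listed 0 have no value. The scaling without small RNAs moved all ratios by 0.07, 0.10 and 0.17. The background at low levels (an FPKM below 1 or 4 in both groups) was added after seeing the data. Depth is unknown, which limits every value below an FPKM of 1.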
